A study of Mus musculus with 13 samples.

Results

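The 10 genes described here make the machinery that loads and shows peptides on MHC class II: H2-Aa, H2-Ab1, H2-Eb1, Cd74, H2-DMa, H2-DMb1, H2-DMb2, H2-Oa, H2-Ob and Ciita. They were picked by gene symbol, and all 10 were found among the 31053 genes of the count table. The study profiled dissociated mouse lung (C57BL/6) by droplet single-cell RNA sequencing, with 1 mouse in each of 4 groups: a Control, an Asthma model sensitized to and challenged with ovalbumin, a PPE-emphysema model given porcine pancreatic elastase into the trachea every week, and a PPE-recovery model given a single elastase dose and left to recover. The labels list 9 more samples, 3 each titled Acute, Con and emphysema, and no counts given under those names were analysed here. The table joined 7 libraries, more than the 4 mice, told apart only by a number at the end of each cell barcode. Nothing in the sources tied a number to a sample or group. No library is therefore given a treatment below, no disease comparison was made, and no p-value was computed.

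After barcodes with over 10% mitochondrial UMIs were left out, 33618 of 37344 remained, with a median of 5272 to 9114 UMIs (unique molecular identifiers, each standing for a captured transcript) per barcode in the 7 libraries. Libraries 1, 2, 3 and 7 held lung epithelial transcripts, with Sftpc at 2674 to 9212 counts per 1000000 UMIs (CPM). Libraries 4, 5 and 6 held almost none, with Sftpc at 0.066 CPM or less, and carried the red cell gene Hba-a1 at 77157 to 94584 CPM against 28.4 to 71.9 CPM in the other 4, which goes against a label of lung tissue. Levels below are therefore from libraries 1, 2, 3 and 7 unless libraries 4 to 6 are named. A total of 123 barcode sequences occurred in more than 1 library.

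MHC class II molecules display peptides from engulfed material to CD4 T cells. An alpha and a beta chain, such as H2-Aa with H2-Ab1 in the I-A molecule, assemble with the invariant chain Cd74. Cd74 guards the groove until endosomal proteases trim it to a fragment called CLIP. H2-Eb1 encodes the beta chain of I-E. Its levels below are of the transcript alone and say nothing of an I-E protein. The dimer of H2-DMa with H2-DMb1 or H2-DMb2 exchanges CLIP for peptide, and the dimer of H2-Oa and H2-Ob holds H2-DM in check. Ciita is the coactivator that switches the whole set on, by binding a complex of RFX, CREB and NF-Y factors sitting on the X and Y boxes of these promoters. Dendritic cells, B cells and macrophages are the professional presenters, while alveolar type 2 epithelium and capillary endothelium of the lung are also known to carry class II.

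Promoters are shown because the X and Y boxes are where Ciita acts. Those printed are of the members, and of their relative H2-Eb2, whose window held an exact Y box. Ciita itself lies at chr16:10480059-10528418 (GRCm38), away from 8 of its targets, which sit within the MHC region of chromosome 17: H2-Oa, H2-DMa, H2-DMb2, H2-DMb1, H2-Ob, H2-Ab1, H2-Aa and H2-Eb1 in that order. H2-DMb2 (chr17:34143307-34151555) and H2-DMb1 (chr17:34153072-34160230) are neighbours on the plus strand, H2-Ob lies at chr17:34238903-34254414, and H2-Aa (chr17:34282744-34287823) is the only one of the 8 on the minus strand. Capitals mark exact matches to the Y box TGATTGG and the X box AACNGATG. A box that departs from these letters stays in lower case, so a lack of capitals is not a lack of a box. Sequences run 5′ to 3′ on the strand of the gene, from RefSeq on GRCm38.p6. The H2-DMb1 and H2-Oa windows run into annotated exons, so only 30 bases ending in the Y box are given; in H2-DMb1 the leading capitals are the end of its X box.
H2-DMb2 (chr17:34145114-34145213, plus strand): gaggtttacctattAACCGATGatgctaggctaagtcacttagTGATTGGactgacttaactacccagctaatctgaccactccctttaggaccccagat
H2-DMb1 (chr17:34153105-34153134, plus strand): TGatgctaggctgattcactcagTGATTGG
H2-Oa (chr17:34092311-34092340, plus strand): cccattatctcagagaactgctcTGATTGG
H2-Ob (chr17:34238770-34238869, plus strand): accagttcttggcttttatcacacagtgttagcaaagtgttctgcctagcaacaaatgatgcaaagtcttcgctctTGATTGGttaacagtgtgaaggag
H2-Aa (chr17:34287859-34287958, minus strand): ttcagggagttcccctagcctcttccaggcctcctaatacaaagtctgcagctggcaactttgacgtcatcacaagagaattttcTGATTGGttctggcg
H2-Eb1 (chr17:34305732-34305831, plus strand): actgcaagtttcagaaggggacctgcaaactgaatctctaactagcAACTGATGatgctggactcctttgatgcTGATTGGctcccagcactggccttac
H2-Eb2 (chr17:34325540-34325639, plus strand): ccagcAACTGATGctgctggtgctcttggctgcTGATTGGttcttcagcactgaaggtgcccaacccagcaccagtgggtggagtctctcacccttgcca

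Of the 7 members on that chromosome with a promoter entry in the RefSeq table, 6 held TGATTGG on the gene strand, 45 to 92 bases before the start, and H2-DMa held neither motif in its 2 windows. Among 32851 promoter windows of 300 bases, TGATTGG occurred on either strand in 7.82% and AACNGATG in 2.32%. The pair of boxes was searched on the gene strand only, where the single boxes occurred in 4.01% and 1.24%. Both in the order X then Y, 18 to 35 bases from start to start, occurred in 5 windows (0.0152%): H2-DMb1, H2-DMb2, H2-Eb1, its relative H2-Eb2, and BC051142. H2-DMb1 and H2-DMb2 shared the spacing as well, 29 bases from the start of the X box to the start of the Y box. The letters are a description of these windows and say nothing of binding in these cells.

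Cells were grouped without the 10 genes, so that their level could not define a class, and 23 classes with cells in the lung libraries were named from marker genes. Every name means cells like that type; the ending "-like" is left off below. All markers of cDC1 (7 of 7), mature dendritic cells (7 of 7), plasmacytoid dendritic cells (6 of 6), B cells (6 of 6), C1q macrophages (7 of 7) and alveolar type 2 cells (8 of 8) were highest in their own class. For cDC2 it was 4 of 5, for alveolar macrophages 7 of 8 and for classical monocytes 4 of 6. It was 4 of 6 for nonclassical monocytes, 4 of 5 for plasma cells, 5 of 6 for endothelial cells and 3 of 6 for fibroblasts. The names came from these same markers, so the counts are not independent support for them. A level is the UMIs of a gene per 1000000 UMIs of the class, and its 95% interval covers counting error only.

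Summed over libraries 1, 2, 3 and 7, the 10 genes made up the largest share of UMIs in the conventional dendritic cells. Their level was 58106 CPM in cDC2 (524 cells), 48805 in cDC1 (495 cells) and 47686 in C1q macrophages (853 cells). Mature dendritic cells, the Ccr7-type state that carries antigen to lymph nodes, reached 34030 CPM (217 cells), B cells 20108 (1389 cells) and plasmacytoid dendritic cells 12893 (63 cells). Below these came Arg1 Mmp12 macrophages at 11295 CPM (1391 cells), alveolar type 2 cells at 6379 (413 cells), classical monocytes at 6376 (1102 cells), endothelial cells at 3723 (2857 cells), plasma cells at 3712 (58 cells), nonclassical monocytes at 3597 (1251 cells) and alveolar macrophages at 2478 (3198 cells). T cells, which in mice do not make class II, stood at 195 CPM (754 cells), club cells at 553 and ciliated cells at 566.

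Some neighbours in that order could not be separated even on counting error. The interval of alveolar type 2 cells, 6319 to 6439 CPM, overlapped that of classical monocytes, 6327 to 6426 CPM, and the endothelial and plasma cell intervals overlapped as well. Between libraries the order moved more than that: alveolar macrophages gave 8559, 835, 1858 and 1033 CPM in libraries 1, 2, 3 and 7, and Arg1 Mmp12 macrophages 18935, 5577, 12277 and 3969. The C1q macrophages stayed high in each, at 51160, 52734, 41229 and 30691 CPM, beside 48218, 66977, 56074 and 60015 CPM in cDC2 and 46947, 50353, 50445 and 45820 CPM in cDC1. C1q macrophages were thus above both dendritic classes in library 1 and above cDC1 in library 2. In bulk sums of this kind, fewer expressing cells and less RNA per cell cannot be told apart, and the levels per cell are given further on.

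**Figure D1:**
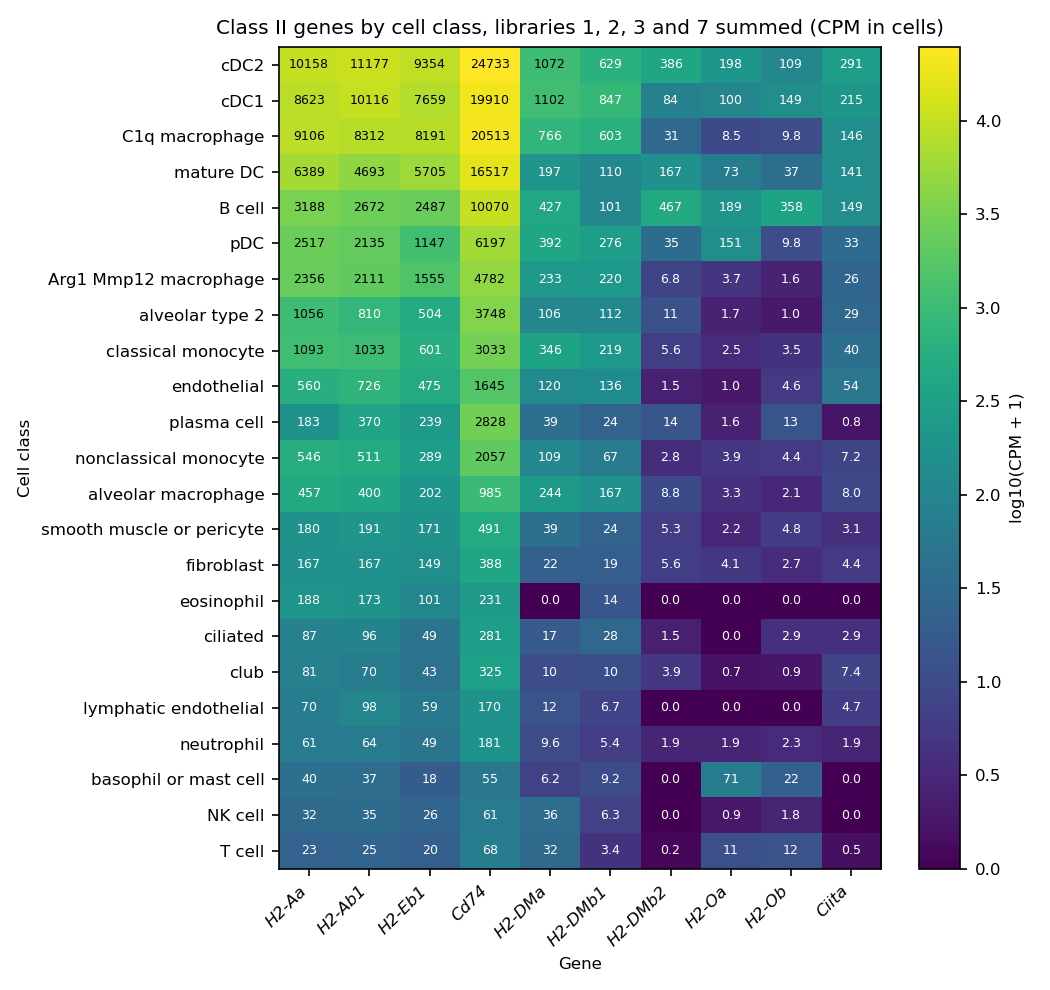
Heat map of the level of each of the 10 genes (columns) in each cell class (lines, ordered by their sum), coloured by log10(CPM + 1) with the CPM written in, from libraries 1, 2, 3 and 7 summed. H2-Aa ran from 10158 CPM in cDC2 to 23.1 CPM in T cells, and H2-Ob was highest in B cells (358 CPM).

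**Figure D2:**
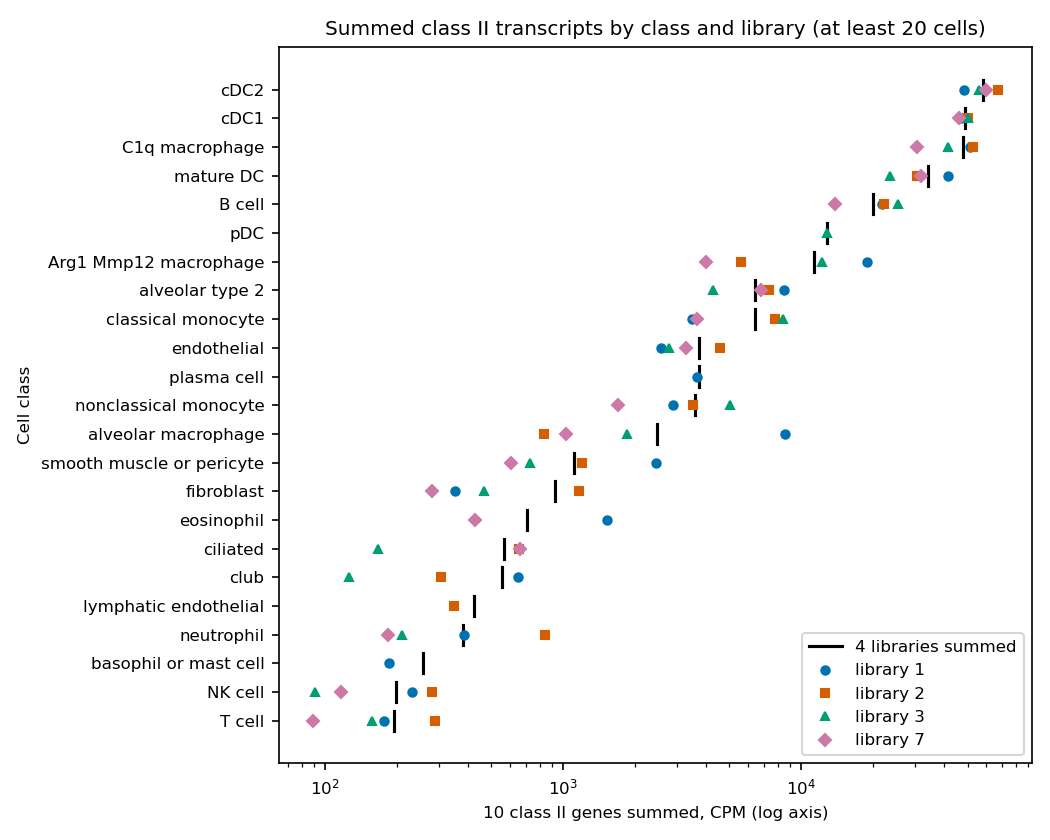
Summed level of the 10 genes by class, in CPM on a log axis, with 1 point per library of at least 20 cells and a black bar for libraries 1, 2, 3 and 7 summed. Alveolar macrophages ran from 835 to 8559 CPM, with library 1 well above the others.

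The classical chains set the scale. H2-Aa in cDC2 was 8325, 11830, 9845 and 10407 CPM in libraries 1, 2, 3 and 7, and in cDC1 it was 8328, 8898, 8965 and 8005 CPM. In B cells H2-Aa was 3464, 3564, 4412 and 1935 CPM, below every cDC1 and cDC2 value. C1q macrophages held 9799, 9991, 7735 and 6074 CPM, which overlapped the dendritic cells. The beta chains H2-Ab1 and H2-Eb1 followed: over the 23 classes the log level of H2-Aa tracked that of H2-Ab1 with a correlation of 0.994, the closest of the member pairs, while H2-DMb1 and H2-Ob were the loosest at 0.459.

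The H2-Eb1 transcript did not keep step with H2-Aa everywhere. H2-Eb1 stood at 0.921 of the H2-Aa count in cDC2, 0.899 in C1q macrophages, 0.893 in mature dendritic cells and 0.888 in cDC1. In alveolar macrophages that ratio was 0.442, in plasmacytoid dendritic cells 0.456, in alveolar type 2 cells 0.477, in nonclassical monocytes 0.530 and in classical monocytes 0.550. The ratio is read only across classes, since counts of different genes are not on a common scale. B cells lay between, at 0.780, and endothelial cells at 0.849.

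Cd74, the invariant chain, was at 24733 CPM in cDC2, 10070 in B cells and 3748 in alveolar type 2 cells. Among classes with at least 1000 H2-Aa UMIs, its ratio to H2-Aa was lowest in Arg1 Mmp12 macrophages (2.03), alveolar macrophages (2.15), C1q macrophages (2.25) and cDC1 (2.31). It was higher in B cells (3.16), alveolar type 2 cells (3.55) and nonclassical monocytes (3.77). Plasma cells, which had fewer than 1000 H2-Aa UMIs, were far apart from these at 15.5 (interval 13.5 to 17.7), with Cd74 at 2828 CPM and H2-Aa at 183 CPM.

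For the exchange factor H2-DM, the balance of the beta chain transcripts differed between B cells and the dendritic cells and macrophages. H2-DMb2 in B cells was 503, 491, 534 and 383 CPM in libraries 1, 2, 3 and 7, and H2-DMb1 was 112, 108, 143 and 61.7 CPM, and H2-DMb2 gave more UMIs in all 4. The count ratio of H2-DMb2 to H2-DMb1 was 4.61 in B cells (interval 4.28 to 4.96) and 4.50, 4.55, 3.72 and 6.22 by library. B cells of the hemoglobin-rich libraries gave 4.24. In cDC2 the ratio was 0.713, 0.682, 0.386 and 0.563, and the libraries of the 2 classes did not overlap. The 83 cDC2 of the hemoglobin-rich libraries gave 0.060 (0.044 to 0.081), below the lung cDC2, but the mix of cells differed. Of these, 82 were of cluster 102, which held 143 of the 524 lung cDC2. Within it H2-DMb2 and H2-DMb1 were 44.5 and 764 CPM in libraries 4, 5 and 6, and 144 and 672 CPM in lung libraries. In the 83 cells, H2-Aa, H2-Ab1, H2-Eb1 and Cd74 together had a lower quartile of 10.9 UMIs per 10000, against 399 in lung cDC2. Some of the 83 thus carried little class II, and the cDC2 marker count was of lung cells only.

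Most other classes had far more H2-DMb1 UMIs than H2-DMb2 UMIs. The ratio was 0.099 in cDC1 (0.091 to 0.107) and in alveolar type 2 cells, 0.128 in plasmacytoid dendritic cells, 0.053 in alveolar macrophages, 0.051 in C1q macrophages, 0.025 in classical monocytes and 0.011 in endothelial cells. Mature dendritic cells were the other class above 1, at 1.51 (1.30 to 1.76), but by library they gave 2.37, 0.826, 1.0 and 1.18. The transcript ends of these neighbouring paralogs, where a 3′ kit reads, share no run of 50 bases in their last 500 (the longest shared run is 34), so reads from those ends can be told apart.

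**Figure D3:**
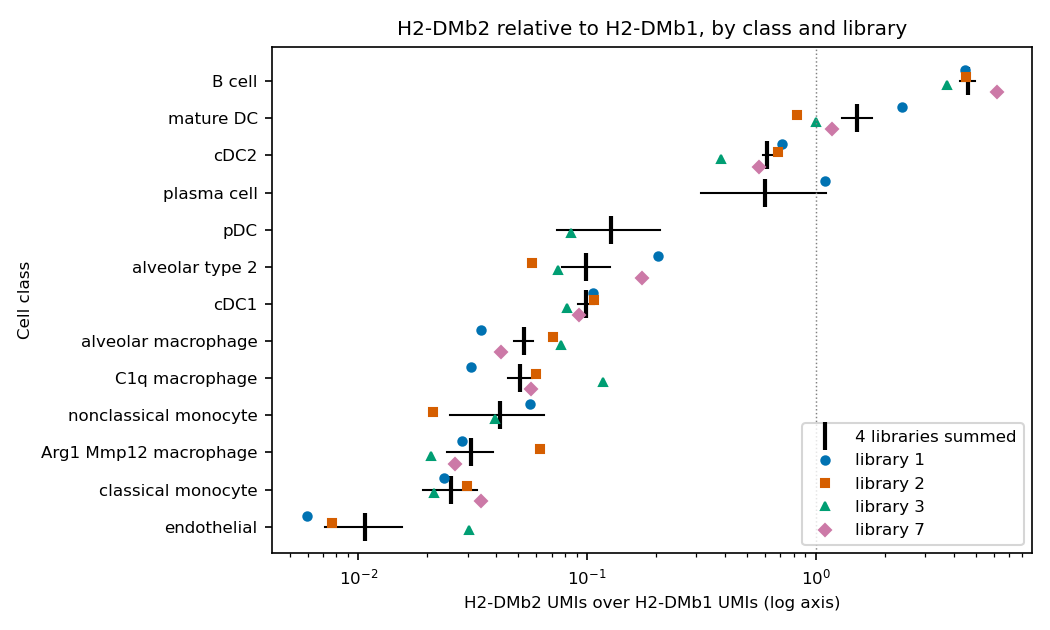
Count ratio of H2-DMb2 to H2-DMb1 by class on a log axis, with coloured points for libraries of at least 20 cells and a black mark with its 95% counting interval for libraries 1, 2, 3 and 7 summed. B cells lie above 1 in each library (3.72 to 6.22), cDC2 lie below 1 in each, and summed macrophages and monocytes lie at 0.053 or less.

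Between the conventional subsets of the lung libraries H2-DMb2 was the member that set cDC2 apart. It was 386 CPM in cDC2 and 83.7 CPM in cDC1, a ratio of 4.61 (4.25 to 5.01) that was 4.25, 5.03, 3.86 and 4.83 in the 4 libraries. It was the only 1 of the 10 that was at least 2-fold higher in cDC2, where 7.32% of the genes compared passed that mark, and none was at least 2-fold lower (4.22%). H2-Oa came close at 1.98. This pair, and the others said to be added, were chosen after levels had been seen. Among lung cDC2 clusters H2-DMb2 was 144 CPM in cluster 102 (143 cells) and 460, 496 and 366 CPM in clusters 103, 104 and 109. In libraries 4, 5 and 6, cluster 102 (82 cells) gave 44.5 CPM, below the cDC1 of the lung libraries.

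The inhibitor H2-O was largely a B cell and dendritic cell product. H2-Ob in B cells was 415, 384, 494 and 210 CPM, against 149 CPM in cDC1, 109 in cDC2, 37.3 in mature dendritic cells and 9.8 in C1q macrophages over libraries 1, 2, 3 and 7 summed. H2-Oa was 198 CPM in cDC2, 189 in B cells, 151 in plasmacytoid dendritic cells and 99.96 in cDC1. The chains did not keep a constant balance: H2-Ob to H2-Oa was 1.89 in B cells, 1.49 in cDC1, 0.550 in cDC2, 0.510 in mature dendritic cells and 0.065 in plasmacytoid dendritic cells. Set against H2-DMa, H2-Ob was 0.837 in B cells, 0.189 in mature dendritic cells, 0.135 in cDC1 and 0.102 in cDC2.

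A signal for H2-Oa lay outside the presenting cells. In basophils or mast cells it was 70.7 CPM (23 UMIs in 17 of 79 cells, interval 44.8 to 106) and was 31.1, 80.6, 114 and 93.9 CPM by library. H2-Ob in those cells was 21.5 CPM. The summed level of the 10 genes there was 258 CPM, near that of T cells, so H2-Oa made up far more of it than in any dendritic class.

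Ciita was detected in the same classes at low counts. It was 291 CPM in cDC2, 215 in cDC1, 149 in B cells, 146 in C1q macrophages, 141 in mature dendritic cells, 54.5 in endothelial cells, 40.0 in classical monocytes, 29.2 in alveolar type 2 cells and 0.5 in T cells. Relative to H2-Aa, among classes with at least 1000 H2-Aa UMIs, Ciita was highest in endothelial cells, at 0.097 (0.091 to 0.104). B cells followed at 0.047 and classical monocytes at 0.037. It was 0.029 in cDC2, 0.028 in alveolar type 2 cells, 0.025 in cDC1, 0.016 in C1q macrophages and 0.011 in Arg1 Mmp12 macrophages.

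The factors that Ciita docks on differed less. Rfx5, a subunit of the RFX complex, was 15.4 CPM in cDC2, 10.5 in cDC1, 22.9 in B cells, 13.3 in endothelial cells and 9.2 in T cells. Of the 6 RFX, NF-Y and CREB genes compared, 1 was at least 2-fold higher in conventional dendritic cells than in classical monocytes (median 1.24). Of all genes, 13.8% were. None was higher or lower by that much in B cells against conventional dendritic cells, where 12.6% and 16.4% of genes were. None was higher in C1q than in alveolar macrophages (median 1.09), where 9.8% of genes were. With 6 genes, these counts cannot be set apart from those shares. Over the 23 classes, the level of Rfx5 correlated with the mean of the 10 genes at 0.212. Among the RFX, NF-Y and CREB genes the values ran from -0.393 for Nfyb to 0.523 for Nfya. Class I genes ran from 0.0797 for Tap2 to 0.605 for Psmb8, with the heavy chain H2-K1 at 0.141.

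The genes closest to the mean of the 10 over these classes were Kmo (0.835), Ly86 (0.835), Fgd2 (0.826), Dnase1l3 (0.825), Pkib (0.818), Syngr2 (0.816), Cd180 (0.811) and Flt3 (0.807). Ly86 (MD-1) and Cd180 form a receptor complex of B cells and dendritic cells, and Flt3 is the growth factor receptor of dendritic cell precursors. The members themselves ran from 0.731 for H2-Ob to 0.967 for H2-Eb1. The classes share libraries, so these values describe the pattern and carry no p.

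Conventional dendritic cells (cDC1 and cDC2, 1019 cells) were first set against classical monocytes, the blood-derived cells that can acquire class II in tissue. H2-Aa in classical monocytes was 551, 1285, 1520 and 606 CPM by library, all below the dendritic values above. A gene counted as higher when its CPM was at least 2-fold that of the other class, among genes with at least 10 CPM in either. All 10 members were higher in the dendritic cells, against 13.8% of all genes compared, with a median ratio of 9.41 against 0.985 over all genes.

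The peptide-loading genes split within that set. H2-Aa was 8.55-fold higher (8.38 to 8.72), H2-Ab1 10.3-fold, H2-Eb1 14.1-fold and Cd74 7.31-fold. H2-DMa and H2-DMb1, which monocytes also made at 346 and 219 CPM, were only 3.15-fold and 3.41-fold higher. H2-DMb2 (40.5-fold, 31.1 to 53.8), H2-Oa (58.9-fold, 39.8 to 91.1) and H2-Ob (37.5-fold, 26.9 to 54.0) were nearly confined to the dendritic side, at 5.56, 2.48 and 3.48 CPM in the monocytes. Ciita was 6.26-fold higher.

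Among the other genes of the pathway the pattern was different. None of 6 endosomal processing genes was at least 2-fold higher in the dendritic cells and 4 were at least 2-fold lower, where 11.4% of genes were lower (median ratio 0.391 against 0.985 over all genes). Ifi30, a further processing gene, was not compared. Of 6 interferon-gamma pathway genes 1 was higher and 3 were lower, and of 9 class I genes 1 was higher (median 0.851). Of all genes, 13.8% were higher.

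B cells against conventional dendritic cells showed movement in both directions. H2-DMb2 was 2.07-fold higher in B cells (1.98 to 2.17; 1.92, 2.05, 3.16 and 1.94 by library) and H2-Ob 2.74-fold higher (2.60 to 2.90; 4.19, 2.51, 3.80 and 1.66 by library). These were 2 of 10, where 12.6% of genes passed the mark. H2-DMb2 lay at the mark, and it fell under 2 when library 3 was left out, which left H2-Ob alone. With mitochondrial UMIs held to 5% neither gene reached 2-fold. H2-Oa was 1.30-fold higher in the sum but 1.83, 1.33, 2.18 and 0.539 by library, so its direction turned in library 7.

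The other side held 6 of 10 members at least 2-fold lower in B cells, where 16.4% of genes were. H2-Aa was 2.93-fold lower, H2-Ab1 3.97-fold, H2-Eb1 3.40-fold, Cd74 2.20-fold and H2-DMa 2.55-fold. H2-DMb1 was the furthest down, 7.34-fold lower (6.86 to 7.87). Ciita, at 149 CPM against 250 CPM, was 1.68-fold lower. H2-Eb2, a further beta chain gene next to H2-Eb1, went the other way, with 37.9 CPM in B cells and a 12.0-fold excess over the dendritic cells.

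Macrophages separated by type. C1q macrophages, which correspond to the interstitial population, had 8 of 8 members compared at least 2-fold higher than alveolar macrophages, against 9.8% of all genes (median 19.2 against 0.893). H2-Aa was 9106 CPM against 457 CPM (19.9-fold), and by library 5.51-fold, 91.5-fold, 27.8-fold and 35.2-fold. H2-Eb1 was 40.5-fold higher, Cd74 20.8-fold and Ciita 18.4-fold, while H2-DMa (3.14-fold), H2-DMb1 (3.61-fold) and H2-DMb2 (3.48-fold) differed far less. H2-DMa to H2-Aa was thus 0.084 in C1q macrophages and 0.534 in alveolar macrophages, the latter 0.230, 1.66, 1.15 and 0.845 by library.

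Compared with conventional dendritic cells, in an added pair, C1q macrophages had no member at least 2-fold higher (12.0% of genes) and 3 lower (6.57%). H2-Aa was level at a ratio of 0.975. The 3 were H2-DMb2 (0.136), H2-Ob (0.075) and H2-Oa (0.058), the chains that also marked off the monocytes.

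**Figure D4:**
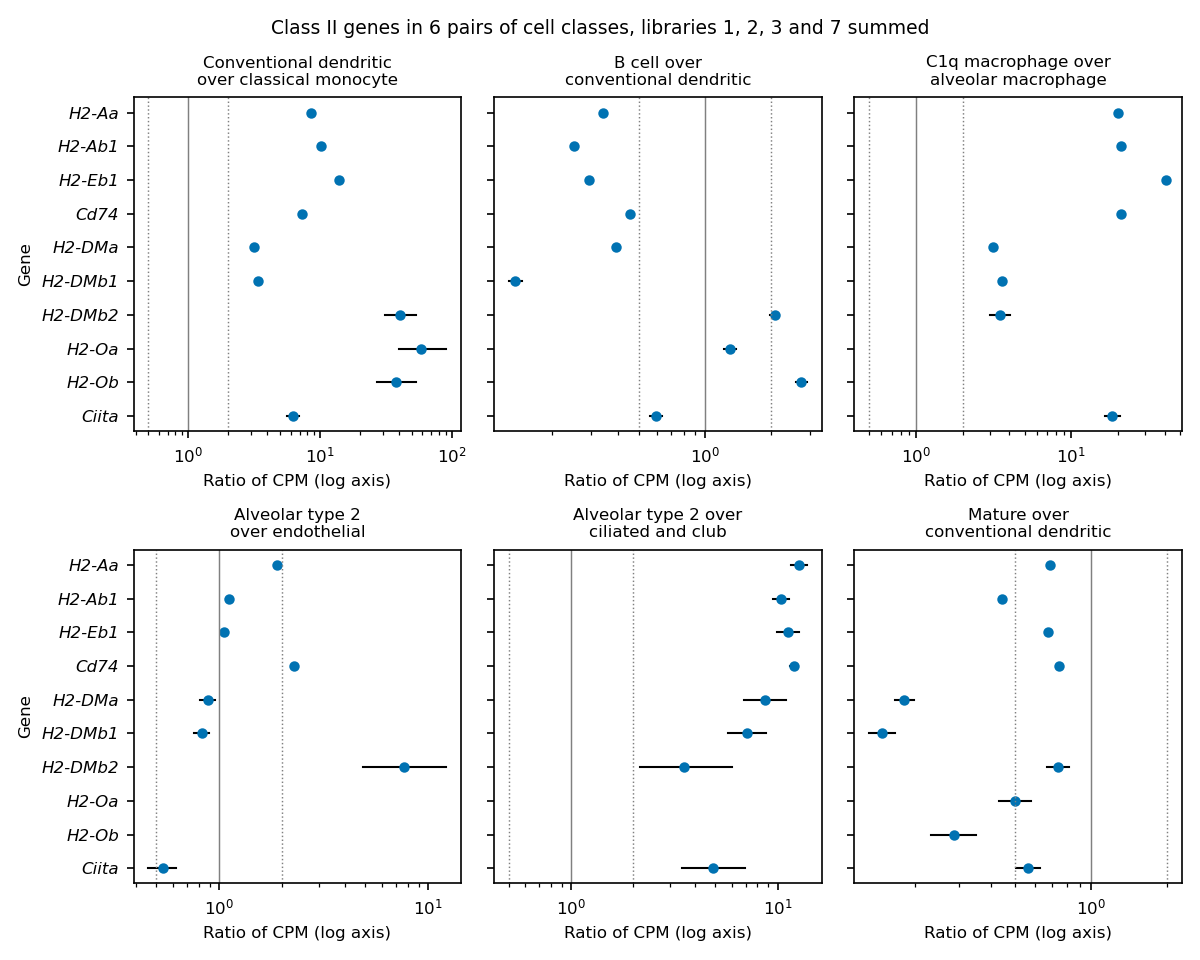
Ratio of CPM between the classes named in each of the 6 panels, on a log axis, for the members compared, with 95% counting intervals, from libraries 1, 2, 3 and 7 summed; the solid line marks equal levels and the dotted lines a 2-fold difference. In B cells over conventional dendritic cells, H2-DMb2 (2.07), H2-Ob (2.74) and H2-Oa (1.30) lie above equality and the other 7 below it.

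No class of alveolar type 1 cells was named here. Among the epithelial classes that were named, class II was highest in the alveolar type 2 cell, the surfactant-making cell of the alveolus. Its H2-Aa was 1354, 1259, 709 and 991 CPM by library. All 8 members compared were at least 2-fold higher than in ciliated and club cells together (301 cells), against 15.0% of genes (median 9.52 against 1.13). H2-Aa was 12.7-fold higher (11.6 to 13.9), Cd74 12.0-fold, H2-Eb1 11.3-fold, H2-Ab1 10.4-fold, H2-DMa 8.65-fold, H2-DMb1 7.09-fold, Ciita 4.85-fold and H2-DMb2 3.52-fold. In library 7, with 29 alveolar type 2 cells, the 8 ratios were between 1.05 and 4.18. The airway values were lower still when cells holding another lineage's genes were left out, an alternative chosen after seeing the data: H2-Aa was then 1041 CPM in alveolar type 2, 31.5 in club and 73.4 in ciliated cells, and Ciita 25.4, 0.562 and 1.58 CPM. Class I genes were higher as well, 7 of 8 by at least 2-fold and a median of 2.37.

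Against endothelial cells, which had H2-Aa at 352, 680, 472 and 456 CPM, alveolar type 2 cells had 2 of 8 members at least 2-fold higher, where 13.1% of genes were. These were Cd74, 2.28-fold (2.24 to 2.32), and H2-DMb2, 7.64-fold (4.90 to 12.2) from 77 and 28 UMIs. H2-Aa was 1.89-fold higher, H2-Ab1 1.12-fold and H2-Eb1 1.06-fold. H2-DMa (0.880), H2-DMb1 (0.826) and Ciita (0.537) were below 1, but the median over all genes was 0.640, so that of these 3 only Ciita lay under it. All 9 class I genes were at least 2-fold lower, where 33.2% of genes were, with a median ratio of 0.216. The count of 2 fell to 1 without library 1, which left Cd74, and to 0 with the UMI and gene limits of the study or with mitochondrial UMIs held to 5%.

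Endothelial class II was not uniform. In added pairs, all 7 members compared were at least 2-fold higher in blood than in lymphatic endothelium, against 12.0% of genes (median 9.66), and none was lower (11.8%). The lymphatic class held 137 cells, 108 of them in library 2 and 10, 16 and 3 in libraries 1, 3 and 7. Within blood endothelium, cluster 4 (2470 cells, led by Ptprb, Sema3g and Gpihbp1) was at least 2-fold above cluster 24 (349 cells, led by Apln, Ednrb and Kdr) for all 7, against 5.24% of genes, and below it for none (5.32%). Those 7 ratios lay between 2.18 and 2.90, and their direction was the same in libraries 1, 2 and 3.

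Mature dendritic cells and plasma cells, each compared in an added pair, had lower levels of several members. Mature dendritic cells had 4 of 10 at least 2-fold lower than conventional ones, where 20.0% of genes were lower, and none higher (11.9%). H2-DMa in mature cells was 297, 128, 64.3 and 174 CPM by library, and 5.52-fold lower in the sum. H2-DMb1 had a ratio of 0.148, H2-Ob 0.286 and H2-Ab1 0.442, while H2-Aa (0.684) and Cd74 (0.745) were reduced less.

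Other genes of the pathway moved strongly in those cells. March1, the ubiquitin ligase that removes class II from the surface, was 3.73 CPM against 83.8 CPM, 22.5-fold lower, whereas Cd83, which counters March1, was 2.11-fold higher (1061 against 504 CPM) and the costimulator Cd40 5.95-fold higher. H2-Eb2 was 88.4 CPM against 3.15 CPM, a 28.0-fold excess (20.6 to 38.7), and the class I activator Nlrc5 was 3.52-fold higher. Interferon-gamma receptor Ifngr1 had a ratio of 0.195. Among the mature cells, a cluster led by Apol7c, Fscn1 and Il12b was at least 2-fold below a cluster led by Ccl22, Ccl17 and Aldh1a2 for 5 members, where 11.9% of genes were, and above it for none (8.65%), but in library 7 the ratio was 1.72 for H2-Ob and 1.24 for Ciita, the opposite direction.

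Plasma cells, the antibody-secreting end of the B lineage, had all 10 members at least 2-fold lower than B cells, but 52.2% of all genes were, since the all-gene median ratio was 0.482. No member was higher (6.26% of genes). The median of the members was 0.0748. H2-Aa was 17.4-fold lower and Cd74 3.56-fold. Ciita was 0.788 CPM against 149 CPM, and Prdm1, the repressor of Ciita in plasma cells, was 110 CPM against 11.7 CPM. The class held 58 cells, with 3 of them in library 3.

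Plasmacytoid dendritic cells had 9 of 10 members at least 2-fold below the conventional cells, where 15.5% of genes were, H2-Oa being the exception, and none above (20.0%). Classical monocytes were above nonclassical ones for 6 of 7 members (5.38% of genes) and below them for none (5.74%), with H2-Aa at 2.003-fold, H2-DMa at 3.17-fold and Ciita at 5.54-fold. That last contrast depends on how monocytes are divided: when the 10 genes and the pathway genes took part in the clustering, the summed level was 1013 CPM in classical and 8738 CPM in nonclassical monocytes, the reverse order.

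Arg1 Mmp12 macrophages were above alveolar macrophages for 5 of 7 members (5.13% of genes) and below them for none (6.93%). Their H2-Aa was 3981, 1038, 2092 and 856 CPM in libraries 1, 2, 3 and 7, and the library 3 value rests on 89 shallow cells with a median of 853 UMIs. In this class 5 of its 6 markers were at their highest, and their sum was 8933, 6738, 972 and 14361 CPM by library, against 3536, 4716, 770 and 3756 CPM in the alveolar macrophages. The name is therefore poorly borne out in library 3, where C1q macrophage markers summed to 1616 CPM in these cells. Alveolar macrophage markers were also high in them, at 76377 CPM in library 7, above the 49337 CPM of the alveolar macrophages there.

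Differences between libraries were then measured within a class, as the highest over the lowest of the lung libraries with at least 50 cells. For alveolar macrophages, H2-Aa was 1778, 109, 278 and 173 CPM in libraries 1, 2, 3 and 7, and Cd74 was 3641, 250, 719 and 376 CPM. Library 1 stood above the others for both. All 8 members compared were at least 2-fold apart, against 15.3% of genes (all-gene median 1.44): H2-Aa 16.3-fold, Cd74 14.5-fold, H2-Ab1 13.5-fold, H2-Eb1 12.0-fold and Ciita 6.64-fold, but H2-DMb1 3.84-fold, H2-DMa 2.80-fold and H2-DMb2 2.75-fold. Without library 1 the count was 5 and the summed level of the class fell from 2478 to 1168 CPM.

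The higher level of library 1 was spread over most of its cells. H2-Aa, H2-Ab1, H2-Eb1 and Cd74 together had a median of 56.5 UMIs per 10000 in library 1 alveolar macrophages and of 1.38, 2.13 and 0.947 in libraries 2, 3 and 7. At 1000 UMIs per cell, 88.0% of library 1 cells were expected to show at least 1 such UMI, against 22.7%, 38.5% and 22.8% in the others, with 1, 0, 1 and 2 shallower cells left out. Without thinning these shares were 98.3%, 87.4%, 77.3% and 79.2%, at median depths of 12683, 15313, 14103 and 17762 UMIs. T cells, which should lack the genes, gave 11.4% thinned and 47.7% unthinned at a median of 6187 UMIs. By library the thinned T cell shares were 12.1%, 16.7%, 7.67% and 6.94%, below the alveolar macrophages of the same library in each case and nearest to them in library 2.

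Some markers of other presenting cells were also highest in library 1. Among the alveolar macrophages the summed C1q macrophage markers were 150, 47.4, 24.1 and 40.3 CPM in libraries 1, 2, 3 and 7, the cDC2 markers 149, 50.3, 61.5 and 57.6, and the B cell markers 24.2, 15.3, 13.4 and 12.5. The cDC1 markers, at 771, 652, 607 and 681 CPM, differed little, while the Arg1 Mmp12 macrophage markers (3536, 4716, 770 and 3756) and the classical monocyte markers (93.3, 126, 54.3 and 92.2) were highest in library 2. The 8 alveolar macrophage markers themselves summed to 70347, 22223, 21760 and 49337 CPM, so they too were highest in library 1. The part of these lists in the class II difference was not tested.

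**Figure D5:**
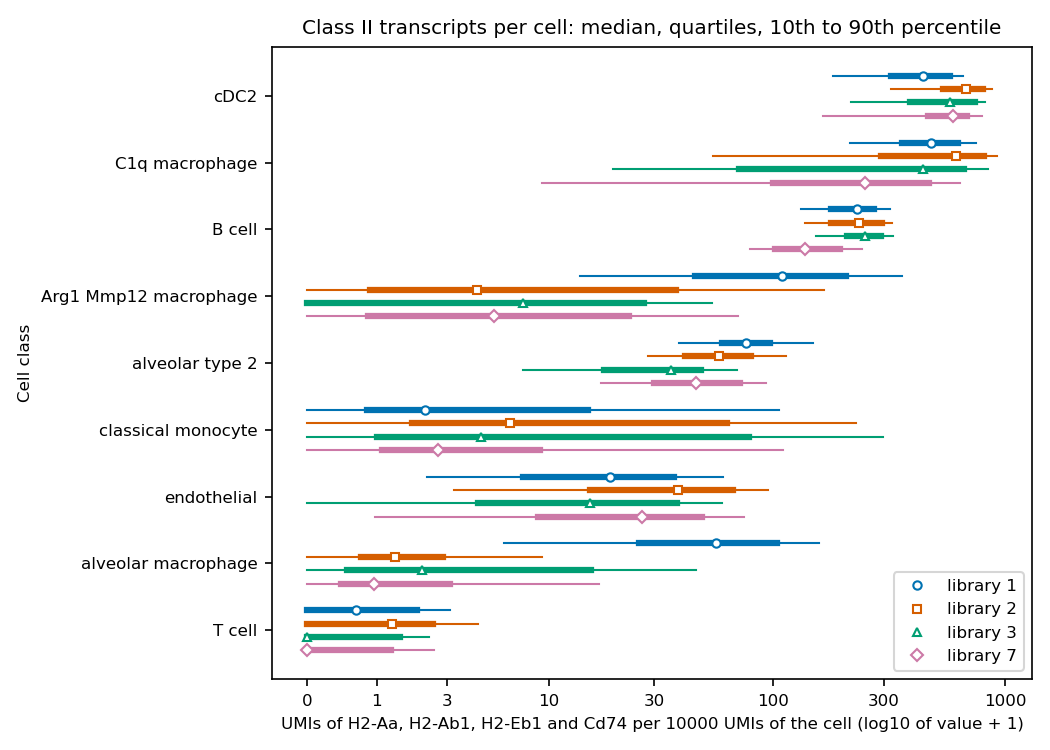
UMIs of H2-Aa, H2-Ab1, H2-Eb1 and Cd74 per 10000 UMIs of each cell (axis in log10 of the value plus 1), by class and library, with the median (marker), the quartiles (thick bar) and the 10th to 90th percentile of cells (thin bar). Library 1 alveolar macrophages have a median of 56.5 against 0.947 to 2.13 in libraries 2, 3 and 7, and the bars show spread among cells, not among animals.

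The spread among cells differed by class. Alveolar type 2 cells had a median of 49.9 UMIs per 10000 and 93.4% of cells with at least 1 UMI at 1000, and endothelial cells 28.5 and 77.6%. Classical monocytes had a median of only 3.43 but a 90th percentile of 198, so their average came from a minority of cells, with 46.9% of cells positive at 1000 UMIs. C1q macrophages reached 477, 616, 445 and 249, and B cells 229, 235, 250 and 137, in libraries 1, 2, 3 and 7. Club and ciliated cells, at 24.5% and 23.1%, were close to the alveolar macrophages of libraries 2 and 7.

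Classical monocytes had 5 of 7 members at least 2-fold apart between lung libraries, where 5.84% of genes were (all-gene median 1.32). H2-Eb1 was 2.98-fold, H2-Aa 2.76-fold, H2-Ab1 2.67-fold and Cd74 2.33-fold higher in library 3 than in library 1, and H2-DMb1 was 2.13-fold higher in library 2 than in library 1. Library 1 was thus lowest of the libraries compared in these cells and highest in alveolar macrophages. Library 7, with 36 of these cells, was not compared, though its H2-Aa, given above, was near that of library 1. Without library 1 the count was 0, from libraries 2 and 3 alone. In the hemoglobin-rich libraries 4, 5 and 6 H2-Aa was 263, 306 and 663 CPM. The clusters behind the name differed, however: cluster 9 held 99.6%, 95.5% and 96.5% of the class in those libraries, and cluster 13 held 84.6%, 78.8%, 91.7% and 80.6% in libraries 1, 2, 3 and 7. Within cluster 9 H2-Aa was 89.1, 1002 and 496 CPM in libraries 1, 2 and 3 and 260, 294 and 569 CPM in libraries 4, 5 and 6, which overlap.

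Alveolar type 2 cells had 4 of 8 members at least 2-fold apart (16.9% of genes): H2-Ab1 2.15-fold, Cd74 2.04-fold, Ciita 2.69-fold and H2-DMb2 4.17-fold, all higher in library 1 than in library 3. The count was 0 without library 1 and 1 without library 3. Libraries 1 and 7 held 51 and 29 of these cells, so library 7 was under 50 cells and was not compared.

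B cells had 5 of 10 members at least 2-fold apart, with 22.5% of genes as background. The ratios of library 3 over library 7 were 3.71 for H2-Oa, 2.35 for H2-Ob, 2.33 for H2-DMb1, 2.28 for H2-Aa and 2.02 for H2-Eb1. The count was 1 without library 3 and 0 without library 7. The makeup of the class differed as well: cluster 18 (led by Zbtb32, Fcrl5 and Cxcr5, median 10543 UMIs) held 67.5% of library 7 B cells and 13.2% of library 3 B cells. In an added pair that cluster was at least 2-fold below clusters 2 and 17 for H2-Oa (0.298), H2-DMb1 (0.362), H2-Ob (0.399) and Ciita (0.473), 4 of 10 where 6.15% of genes were, and above them for none (5.4%). The part of this cluster in the library difference was not tested.

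In conventional dendritic cells Ciita alone of 10 was at least 2-fold apart, with 14.7% of genes as background. It was 2.16-fold higher in library 7 (350 CPM) than in library 3 (162 CPM), and no longer called without either library. The other 9 ratios were between 1.14 and 1.55, most of them below the all-gene median of 1.49.

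B cells also let lung libraries be set against hemoglobin-rich ones, as they were plentiful in both (1389 and 3386 cells). Of the 10, 1 was at least 2-fold apart, where 8.22% of genes were, with 4.11% higher and 4.12% lower in the lung libraries. This was Ciita, at 187, 139, 159 and 124 CPM in libraries 1, 2, 3 and 7 and at 136, 310 and 371 CPM in libraries 4, 5 and 6. The groups overlapped at library 4, which held 66 B cells, and the ratio of the sums was 0.444 (0.419 to 0.471). The other 9 ratios ran from 0.722 for H2-Ob to 1.14 for H2-DMa. With each library given equal weight Ciita no longer reached 2-fold. Cluster 2 held 24.9%, 17.7%, 15.0% and 12.7% of the B cells in libraries 1, 2, 3 and 7 and 59.1%, 86.0% and 99.1% in libraries 4, 5 and 6. Within that cluster Ciita was 217 CPM in the lung libraries and 359 CPM in the others, under 2-fold apart, and the libraries overlapped, since libraries 1, 2 and 7 (280, 195 and 255 CPM) lay above library 4 (161 CPM), although libraries 5 and 6 (348 and 372 CPM) lay above all lung libraries.

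Eosinophils, which the study centred on, held few class II UMIs in the cells kept under that name. The name rests here on Ccr3, Il5ra, Epx, Prg2, Alox15 and Siglecf. Of these 6 markers 5 were highest in this class, and the least abundant stood at 28.9 CPM, below the 43.4 CPM that 3 UMIs make. The paper's own eosinophil clusters also expressed C1qa, Ms4a7 and Rnase2a, which here were markers of macrophage classes. The paper named those clusters from Ccr3, Il5ra, Epx, Prg2 and Alox15. It further compared them with RNA of sorted eosinophils and located Rnase2a, C1qa and Alox15 RNA in ECP-stained lung cells. It lists H2-Aa among the genes of its asthma-related eosinophil state, and proposes that class II assembly falls as eosinophils mature in emphysema. The cells of the paper were not matched to this class, and the values below are of this class alone. In 96 cells with a median of 613.5 UMIs, 49 UMIs of the 10 genes were counted, which is 708 CPM (524 to 936), and came from library 1 (1532 CPM, 25 cells) and library 7 (428 CPM, 69 cells) with 2 cells in library 3. H2-DMa, H2-DMb2, H2-Oa, H2-Ob and Ciita had no UMI. A count of 0 allows up to 3 UMIs, or 43.4 CPM, at this depth, so Ciita at the level of alveolar type 2 cells could have been missed. A further cluster of 192 lung cells with eosinophil markers (median 546.0 UMIs) was left out because it also held epithelial genes. Its 10 genes summed to 2811 CPM, with H2-DMa at 69.7, H2-Oa at 30.5, H2-DMb2 at 26.1 and Ciita at 13.1 CPM, and the part of the epithelial transcripts in these values was not tested.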

How the data were processed

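The authors deposited UMI counts per gene and barcode as a single matrix of integers, made with Cell Ranger 3.1.0 per the file header and the mm10 genome per the submitters' processing notes. Methods state that reads may be down-sampled when libraries are joined, and name kit version 2, whereas the labels name version 3. The paper gives red cell lysis of lung tissue under flow cytometry. Raw counts were used as deposited. Barcodes with over 10% mitochondrial UMIs were dropped. The rest were normalized to 10000, and 2000 variable genes without the 10 members and the other named genes were reduced to 30 components, aligned by mutual nearest neighbours (20) and clustered by Leiden at resolution 0.8 (Python 3.11.15, scanpy 1.11.5, leidenalg 0.10.2, scikit-learn 1.9.0). Of 58 clusters, 55 were named from marker lists, and 13 holding genes of a second lineage (3034 cells, a rule set after seeing the data) were left out, as were 237 unnamed cells. Scrublet called 2.21%, 5.63%, 3.28% and 0.757% of cells in libraries 1, 2, 3 and 7. These calls were left in, since fewer than 0.5% of cells were called in libraries 4 to 6.

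CPM are UMIs per 1000000 UMIs of a class, intervals are exact Poisson or binomial at 95% and cover counting error only, and a floor of 3 counts stands for 0. A gene counted as different at a ratio of 2 with at least 10 CPM on either side, without a requirement on the interval. The genes named are all 10 members, genes of the pathway and of class I from a list (38 compared), the genes most like the mean of the members, and the leading genes of clusters. Ifi30 and H2-Ea-ps were also listed but were not compared. Correlations are Pearson's over log2 levels in 23 classes. Only the search for the genes most like the mean was kept to genes reaching 100 CPM in a class. Cells are not replicates and the libraries carry no group, so no test was run. Scripts were tested on simulated data. The members, gene lists and added pairs were chosen with earlier results of these data known. Coordinates are GENCODE GRCm38, and motifs were searched on both strands of RefSeq windows from 250 bases before to 50 after each start. Capitals and the X then Y pair are from the gene strand only.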

Additional observations from a re-analysis of the deposited data

Results flagged for a closer look

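Barcodes left out for mitochondrial content (3726) still carried class II transcripts, at 8482 CPM summed over the 10 genes, above the 0.22 CPM that a count of 0 allows there. H2-Aa in them was 1561 CPM, H2-DMb2 95.5 CPM and H2-Ob 86.8 CPM. The clusters left out for holding genes of a second lineage (3034 cells) carried 5223 CPM summed over the 10 genes, with H2-Aa at 910 CPM and Cd74 at 2373 CPM. Neither set entered a comparison.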

How the results depend on the processing

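No paired analysis was possible because the libraries carry no group and no replicate number, and no result comes from a test. Of 188 recomputed counts of members, 162 stayed within 1.5 times the reported count and 26 did not. All 10 members stayed above classical monocytes in conventional dendritic cells under each alternative run.

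With the UMI and gene limits of the study, the count higher in B cells than in conventional dendritic cells was 1, that of alveolar type 2 over endothelial cells 0, and that between libraries in alveolar type 2 cells 0. With mitochondrial UMIs held to 5%, the first 2 counts were 0 and 0, and the counts between libraries in alveolar type 2 and B cells gave no value. The count of alveolar type 2 over endothelial cells was 1 without Scrublet calls, 1 with mixed clusters kept, and 1 without cells holding another lineage's genes, the last 2 being alternatives chosen after seeing the data. Between libraries, alveolar type 2 cells gave 0 at resolution 1.5, 0 with members kept in the clustering and 8 at a ratio of 1.5, while classical monocytes gave 2 with members kept and 8 with no minimum CPM. At a ratio of 1.5, B cells gave 9 and conventional dendritic cells 3. With equal weight per library, B cells of lung against hemoglobin-rich libraries gave 0. The causes were not tested.

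Leaving out 1 library at a time gave counts from 10 to 10 for dendritic cells over monocytes, 1 to 2 and 5 to 6 for B cells above and below dendritic cells, 8 to 10 for C1q over alveolar macrophages, 1 to 3 and 7 to 8 for alveolar type 2 over endothelial and over airway cells, and 1 to 1 for B cells of lung against hemoglobin-rich libraries. Between libraries it gave 0 to 5 in classical monocytes, 5 to 8 in alveolar macrophages, 0 to 4 in alveolar type 2 cells, 0 to 5 in B cells and 0 to 1 in dendritic cells. Of the class sums recomputed under each alternative, those that moved by over 1.5 times were T cells (151 to 1365 CPM), classical monocytes (1013 to 7831), nonclassical monocytes (2979 to 8738), Arg1 Mmp12 macrophages (4619 to 15586) and alveolar macrophages (1168 to 4396). Dropping 7074 cells with another lineage's genes took fibroblasts from 928 to 142 CPM, club cells from 553 to 278 and alveolar type 2 cells from 6379 to 6225. Depth limits eosinophils most.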
